A study of Saccharomyces cerevisiae with 6 samples.

Results

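The genes described here encode phosphate transporters of budding yeast and the subunits of its polyphosphate polymerase. They were chosen by name: of 10 named genes, 8 are among the 2850 genes listed in the files, and the other two, the vacuolar phosphate transporter gene PHO91 and the kinase inhibitor gene PHO81, were not analysed here. The rule names genes and reads from the files only whether each is listed, but it was written with earlier results of these data known. The fold changes and adjusted p-values below therefore describe where these genes lay in a test of the whole table. All 6 cultures were of the diploid Saccharomyces cerevisiae strain BY4743. The 3 naive and 3 [ESI+] cultures were grown in YPD, a rich glucose medium, to an OD600 of about 0.5, and polyadenylated RNA was sequenced. [ESI+] is a heritable, prion-like state linked to the protein Snt1, part of the Set3 histone deacetylase complex. The labels call the cultures of a group biological replicates and do not say whether the [ESI+] cultures came from separate isolates.

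Yeast cells take up inorganic phosphate through high-affinity transporters, Pho84 (coupled to protons) and Pho89 (coupled to sodium), and low-affinity transporters, Pho87 and Pho90. Surplus phosphate is stored in the vacuole as polyphosphate, a chain that the vacuolar transporter chaperone (VTC) complex makes and moves across the membrane. When phosphate runs short, the inhibitor Pho81 blocks the kinase Pho80-Pho85, and the transcription factor Pho4 then enters the nucleus and activates its targets, classically PHO84 and PHO89 with phosphatase and VTC genes, at sites with the core letters CACGTG. Rich medium supplies phosphate, so this program is usually low there.

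In ESI+ libraries the transcripts of 3 transporter genes, PHO89, PHO87 and PHO90, were called higher, but none of the 3 passed without ESI+ replicate 2. In such bulk samples more cells with a transcript and more of it per cell cannot be told apart. The main high-affinity transporter gene PHO84 and the VTC genes VTC1, VTC2, VTC3 and VTC4 did not pass the test. By edgeR's quasi-likelihood test with adjustment over all 2844 tested genes (threshold 0.05), 3 of the 8 genes were higher and 0 lower, where 6.26% of all tested genes were called higher and 1.65% lower. Among the 711 tested genes least abundant in naive libraries, PHO89 and PHO87 included, 140 were called higher. The median log2 fold change was -0.56 over the 8 and 0.07 over all tested genes. At an unadjusted p under 0.05 the lower side held 0 of the 8, where it held 10.6% of all genes. DESeq2 called the same 3 genes higher and 0 lower (8.47% and 5.1% of all genes). On log2(TPM + 1), limma called 0 of the 8 in either direction, where 4.84% of all genes were called higher and 1.12% lower. At an unadjusted p under 0.05 limma had 2 of the 8 higher, against 20.7% of all genes.

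Some libraries stood apart from the rest. Total estimated counts ran from 316485 (ESI+ replicate 3) to 5934050 (naive replicate 3). Over all genes of the table, which do not stand for replicates, log2 normalised counts correlated at a Pearson's r of 0.926 to 0.952 within the naive group and 0.602 to 0.752 within the ESI+ group. ESI+ replicate 1 correlated with the naive libraries at 0.899 to 0.909, more closely than with the other ESI+ libraries, and ESI+ replicates 2 and 3 at 0.615 to 0.683. A floor proportional to transcript length, the 5th percentile over genes of counts per kb, would account for 30.4% of all counts in ESI+ replicate 2 and for 2.51% to 6.72% in the other libraries. URA3, a gene the strain lacks by design, reached 255 and 333 CPM (counts scaled to the normalised library size) in naive replicate 3 and ESI+ replicate 3, against 17.8 to 32.3 in the other libraries, which goes against the strain label. HIS3, the other listed marker gene of the strain, was at 453 CPM in ESI+ replicate 3 and at 32.6 to 66.4 elsewhere, naive replicate 3 included. Of 12 haploid or mating-type genes used to check the diploid label, 4 are listed. The a-factor genes MFA1 and MFA2, silent in a/alpha diploids, were at most 1.42 CPM in naive libraries. In ESI+ libraries MFA1 had 3.77 to 15.02 CPM and MFA2 at most 8.74. The agglutinin gene AGA2 was between 0.54 and 12.7 CPM except for 92.6 in ESI+ replicate 3. STE4, the last of the 4, was between 19.0 and 97.8 CPM, at 1.04 to 5.62 times the floor. The part of these differences in the results below was not tested beyond leaving libraries out and subtracting the floor.

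Most of the genes share a sequence feature. Several of the named genes are classical Pho4 targets, so the motif counts that follow describe the list and are no independent finding. The core letters of the Pho4 site, CACGTG, which read the same on both strands, occur within 600 bases before the coding start of 9 of the 10 named genes and 7 of the 8 listed genes, with PHO90 as the exception. Of 5999 protein-coding genes searched in the same way, 7.23% hold the motif. The weaker letters CACGTT, searched on both strands, were found for 3 of the 8 listed genes and for 18.8% of all genes. The genes with the motif include both PHO89 and PHO87, which were called higher, and PHO84 and the VTC genes, which were not called. A match is a run of letters and not a measured site.

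Stretches around the motif are shown to set a transporter gene called higher (PHO89) beside PHO84 and VTC genes that carry the same letters and were not called. Matches of PHO87, VTC1 and VTC4 lie within 200 bases of the start codon and are not printed. Each stretch is read 5′ to 3′ on the strand of its gene from the RefSeq R64 reference, with CACGTG in capitals. The PHO84 stretches are at chrXIII:26214-26253 and chrXIII:26192-26231, 436 and 414 bases before the start codon, and overlap each other. That of PHO89 is at chrII:798823-798862 (323 bases before the start codon), that of VTC2 at chrVI:131482-131521 (311 bases), and those of VTC3 at chrXVI:517341-517380 and chrXVI:517307-517346 (345 and 311 bases).
PHO84 distal: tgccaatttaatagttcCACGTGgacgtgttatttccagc
PHO84 proximal: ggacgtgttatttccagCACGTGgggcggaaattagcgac
PHO89: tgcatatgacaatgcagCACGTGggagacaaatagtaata
VTC2: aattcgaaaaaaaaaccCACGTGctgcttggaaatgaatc
VTC3 distal: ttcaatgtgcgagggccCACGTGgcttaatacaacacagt
VTC3 proximal: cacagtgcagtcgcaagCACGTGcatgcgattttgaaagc

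[ESI+] has been tied to genes near chromosome ends, and both high-affinity transporter genes lie there. PHO89 is 14.7 kb from the right end of chromosome II and PHO84 is 24.0 kb from the left end of chromosome XIII. The other 6 listed genes are 60.8 kb (PHO90) to 431 kb (VTC3) from the nearest end. The gene nearest to an end was called higher, and so were PHO87, at 119 kb, and PHO90, while PHO84 was not called. A link between distance to an end and fold change was not tested.

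PHO89 (YBR296C, chrII:796798-798522, minus strand) encodes the sodium-coupled high-affinity transporter. It had 14.5, 13.6 and 10.2 CPM in naive replicates 1, 2 and 3, and 46.3, 214 and 17.5 CPM in ESI+ replicates 1, 2 and 3. Every ESI+ library lay above every naive library, but ESI+ replicate 3 by little and ESI+ replicate 2 by far. The edgeR log2 fold change of ESI+ over naive came to 2.91, with an SE of 0.71 and an adjusted p of 0.0163. The value in ESI+ replicate 3 rests on 7 counts, with a 95% Poisson interval of 7.05 to 36.1 CPM that covers counting error only and overlaps the naive values.

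PHO87 (YCR037C, chrIII:194414-197185, minus strand) encodes a low-affinity transporter with an SPX domain, a fold that binds inositol pyrophosphates and so senses phosphate. It had 47.6, 31.2 and 29.0 CPM in the naive libraries and 80.2, 232 and 118 CPM in the ESI+ libraries. The groups did not overlap, and the lowest ESI+ value stood well above the highest naive value. In edgeR this was a log2 fold change of 2.00 with an SE of 0.52 and an adjusted p of 0.0213.

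PHO90 (YJL198W, chrX:60844-63489, plus strand) encodes the paralogous low-affinity transporter, which also carries an SPX domain. Its CPM values were 59.2, 57.0 and 75.8 in naive and 91.5, 364 and 118 in ESI+ libraries. The groups did not overlap, though ESI+ replicate 1 lay close to naive replicate 3. Its edgeR log2 fold change of 1.59 had an SE of 0.50 and an adjusted p of 0.0485, close to the threshold. The coding sequences of PHO87 and PHO90 match at 72.2% of positions over 1958 aligned bases, which cover 70.6% of that of PHO87. Each gene was the longest match of the other. PHO89, PHO87 and PHO90 lay higher in all ESI+ libraries on the CPM and the TPM scale, as did 15.2% and 29.6% of all tested genes on those scales.

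**Figure D1:**
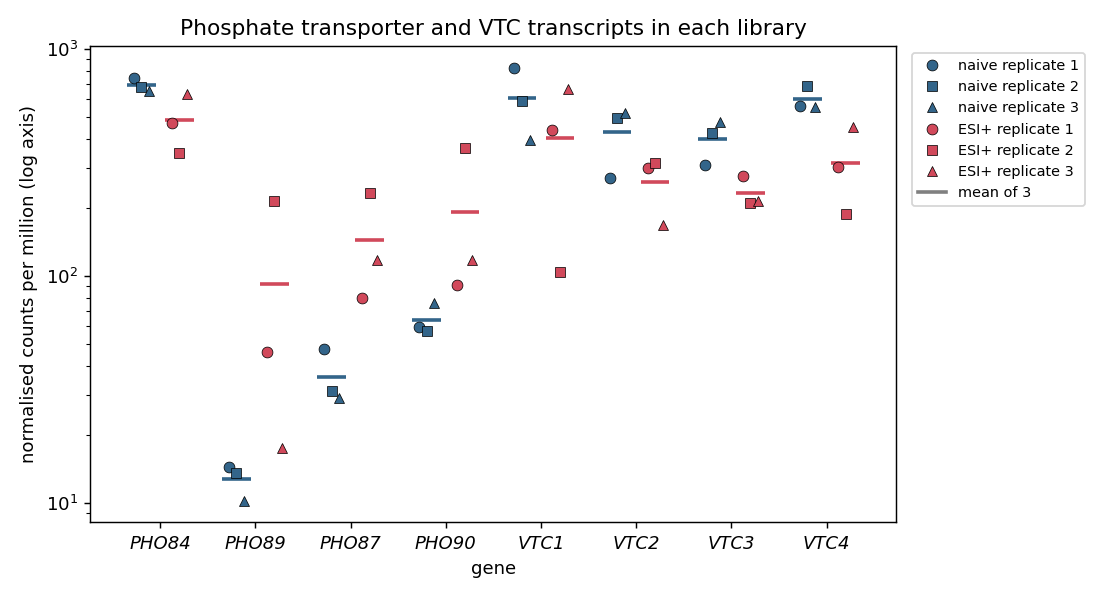
Normalised CPM (log axis) of the 8 listed genes in each library, with naive libraries in blue, ESI+ libraries in red and a bar at the mean of 3. PHO89, PHO87 and PHO90 lie higher in all ESI+ libraries, PHO84, VTC3 and VTC4 lie lower in all of them, and VTC1 and VTC2 overlap. Of all tested genes, 15.2% lie higher and 14.6% lower in all ESI+ libraries.

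The calls rested on ESI+ replicate 2. Without it the log2 fold changes were 1.41 for PHO89, 1.43 for PHO87 and 0.69 for PHO90 (edgeR adjusted p = 0.236, 0.14 and 0.36). None of the 3 passed then, where 0.0704% of all genes were called higher and 0.0% lower. At an unadjusted p under 0.05, 2 of the 8 listed genes were higher (PHO89 and PHO87), as were 11.1% of all genes. The 3 genes had been singled out by a fit that held ESI+ replicate 2. Naive replicate 3 mattered too, since without it PHO89, PHO87 and PHO90 had edgeR adjusted p-values of 0.0554, 0.0868 and 0.0939, where 2.49% of genes were called higher and 0.14% lower. PHO87 also failed without naive replicate 2 (adjusted p = 0.0806), and PHO90 without naive replicate 1 or 2 (adjusted p = 0.108 and 0.141).

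Leaving out the shallow ESI+ replicate 3 lowered the adjusted p of each gene, to 1.06e-06 for PHO89, 8.65e-04 for PHO87 and 0.00175 for PHO90, with 11.6% of genes called higher and 1.51% lower. When both libraries numbered 3, those with the high URA3 values, were left out, the 3 genes passed, with log2 fold changes of 3.21, 1.97 and 1.97 (edgeR adjusted p = 6.03e-04, 0.0226 and 0.0197), where 6.21% of genes were called higher and 0.211% lower. The 3 genes passed with effective-length offsets, which take up shifts between isoforms (6.65% higher and 1.69% lower), and PHO90 missed the threshold without robust dispersion (5.27% higher and 0.985% lower). With ESI+ replicate 1 as the lone ESI+ library, which is assumed to vary like the naive libraries that alone give the spread, PHO89, PHO87 and PHO90 had adjusted p-values of 0.205, 0.36 and 0.629 and 0 genes of the whole table were called. Over all 18 alternatives their log2 fold changes were positive in each. Every ESI+ value of PHO89, PHO87 and PHO90 lay above every naive value on the CPM and TPM scales. These signs therefore add little to the main fit. With the floor subtracted the log2 fold change of PHO89 could not be negative, since its naive counts were all under the floor.

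**Figure D2:**
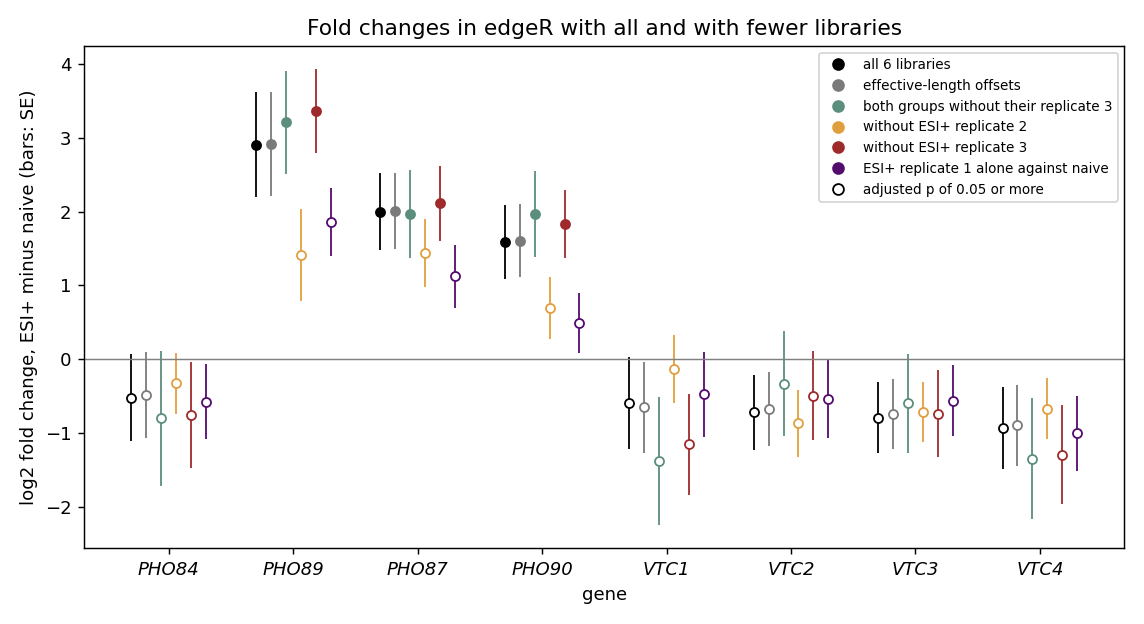
Log2 fold changes, ESI+ minus naive, of the 8 genes in edgeR with SE bars, for all 6 libraries and for 5 other settings, with filled points where the adjusted p was under 0.05. PHO89, PHO87 and PHO90 lie above 0 in every setting drawn, and their points are open without ESI+ replicate 2 and with ESI+ replicate 1 alone.

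The 3 genes called higher are scarce transcripts in naive cells. Tested genes were sorted by their mean CPM in naive libraries into 4 groups of 711. PHO89 and PHO87 were in the least abundant group, in which the median log2 fold change of all genes was 1.17 and 140 genes were called higher. PHO90 was in the next group, with a median of 0.29 and 36 genes called higher. The counts can also be set against the length-proportional floor, which as a share of all counts was highest in ESI+ replicate 2 and lowest in ESI+ replicate 3. PHO89 had 51, 10 and 47 counts in naive replicates 1, 2 and 3, where the floor for its length was 86.4, 14.9 and 113 counts. The ESI+ libraries held 86, 1613 and 7 counts of PHO89 against floors of 66.8, 609 and 4.08. PHO89 was thus under the floor in each naive library and 1.29, 2.65 and 1.72 times the floor in ESI+ replicates 1, 2 and 3. PHO87 was 0.83 to 1.37 times the floor in naive libraries and 1.57, 2.03 and 8.12 times in ESI+ replicates 1, 2 and 3. PHO90 was 1.80 to 2.29 times the floor in naive libraries and 1.89, 3.36 and 8.57 times in ESI+ replicates 1, 2 and 3. Of all tested genes, 10.3% were under 2 times the floor in all naive libraries, PHO89 and PHO87 among them. The floor was also subtracted from the counts, with negative results set to 0. The 3 genes were then higher in ESI+, at edgeR unadjusted p-values of 0.0022, 0.0119 and 0.00864 for PHO89, PHO87 and PHO90. That step set PHO89 to 0 in all naive libraries, so its direction was fixed beforehand and its p-value lends no support. The step also set PHO87 to 0 in naive replicate 3. The log2 fold changes of PHO87 and PHO90 were 4.54 (SE 1.46) and 2.78 (SE 0.84), and PHO89 has no fold since its naive counts were all under the floor. Their adjusted p-values were 0.116, 0.164 and 0.148. In that setting edgeR called 0 of 2740 genes higher or lower, or 0.0% (347 higher and 184 lower at an unadjusted p under 0.05).

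**Figure D3:**
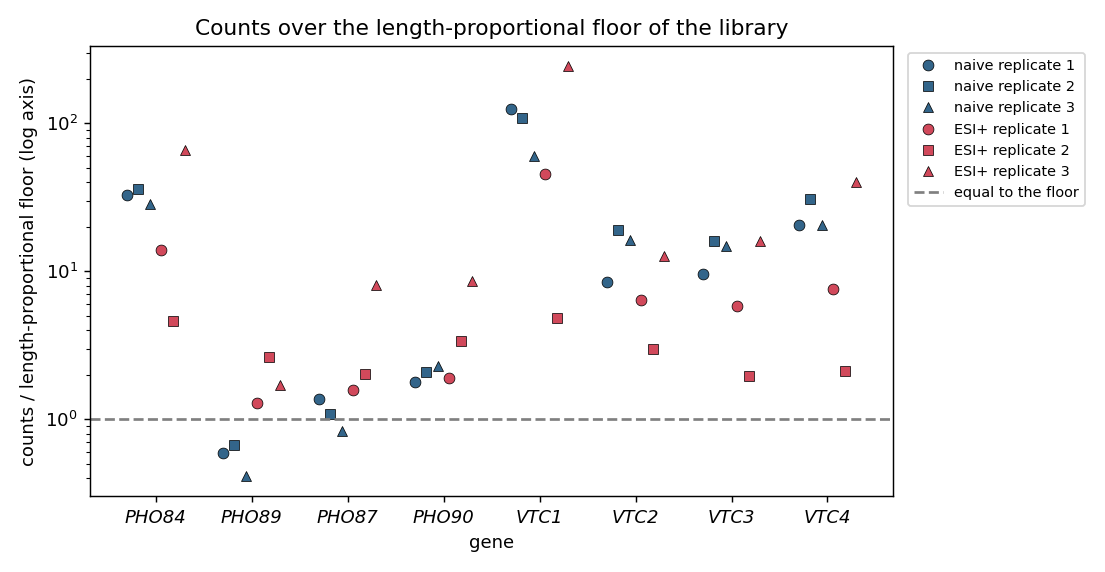
Estimated counts of each gene divided by the length-proportional floor of the same library (log axis), with a dashed line where they are equal. PHO89 lies under the line in the 3 naive libraries and over it in the 3 ESI+ libraries, while PHO84 and the VTC genes lie 1.97 to 242 times above the floor.

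PHO84 (YML123C, chrXIII:24037-25800, minus strand), the main high-affinity transporter gene, was the most abundant of the 4 transporter transcripts in every library on the TPM scale. It had 747, 679 and 652 CPM in the naive and 471, 348 and 634 CPM in the ESI+ libraries. All ESI+ values lay below all naive values, as for 14.6% of tested genes (3.69% on the TPM scale), but ESI+ replicate 3 came close to the naive range. The difference did not pass, at a log2 fold change of -0.52, an SE of 0.58 and an edgeR adjusted p of 0.604. In TPM, a unit per length that sums to the same total in each library, PHO84 had 306, 222 and 242 in naive and 216, 346 and 348 in ESI+ libraries, so the groups overlapped and the direction turned (0.22 by limma on log2(TPM + 1), adjusted p = 0.77). The median of all genes was 0.64 on that scale, and PHO84 lay 0.42 below it.

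The R64 annotation places an antisense RNA over PHO84. It is YNCM0001W (chrXIII:23564-26578, plus strand), and the annotation says that it represses PHO84 through histone deacetylation. It covers all 1764 bases of the coding sequence, and it was not analysed here. The sources used here do not say if the libraries were stranded, and without strand the reads of PHO84 and of its antisense partner cannot be told apart. PHO84 counts are uncertain in that respect.

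The isoform models of PHO84 were filled differently in naive and ESI+ libraries. The files hold 6 models of 1874 to 1932 bases. The model of 1912 bases took 97.8%, 97.3% and 87.6% of the gene's estimated counts in naive replicates 1, 2 and 3, and 29.1%, 0.0% and 52.3% in ESI+ replicates 1, 2 and 3. In ESI+ replicate 1 the model of 1917 bases held 57.2%. In ESI+ replicate 2 all counts went to the longest model of 1932 bases, and in ESI+ replicate 3 the model of 1900 bases held 45.98%. Every ESI+ library thus gave less of PHO84 to the 1912-base model than any naive library did, but each to a different replacement. The models are close in length, and the error of dividing fragments among them is not in these tables, so no test was made. For other genes the division swung as widely within the naive group. The VTC2 model of 2574 bases held 2.7e-04%, 83.0% and 0.29% in naive replicates 1, 2 and 3. The VTC1 model of 540 bases held 0.10%, 82.8% and 24.7% there. How many genes of the whole table split by group as PHO84 did was not counted.

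**Figure D4:**
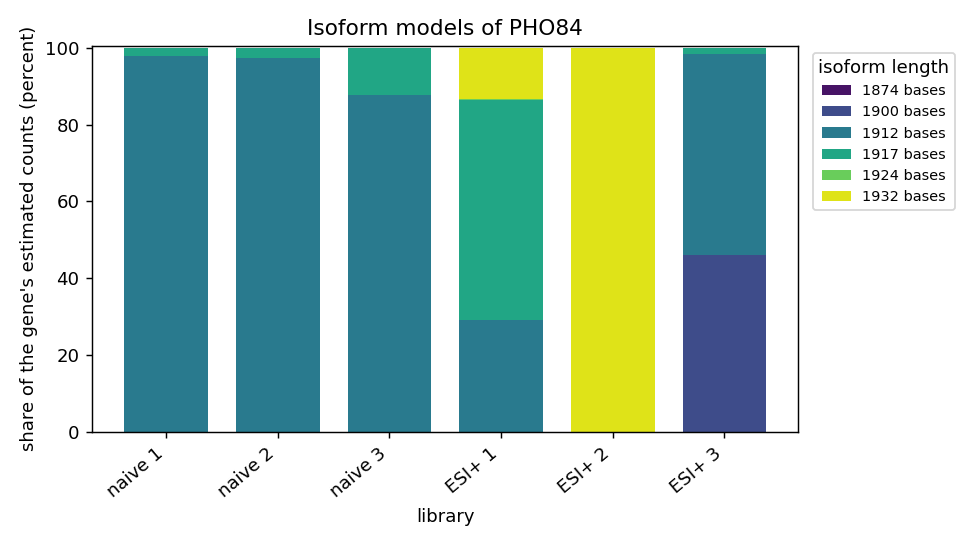
Share of the estimated counts of PHO84 assigned to each of its isoform models (percent), stacked by library and coloured by model length. The 1912-base model holds at least 87.6% in each naive library and at most 52.3% in each ESI+ library.

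The mix of the 4 transporters held more of the scarcer genes in each ESI+ library. The whole table moved the same way. From the least to the most abundant group of 711 genes, median log2 fold changes were 1.17, 0.29, -0.28 and -0.83. PHO89 and PHO87 were in the least abundant group, PHO90 in the next and PHO84 in the most abundant. Whether the mix moved more than other such sets of genes was not tested. Levels of different genes are compared here as TPM. PHO84 made up 89.99%, 90.7% and 89.4% of their summed TPM in naive replicates 1, 2 and 3, and 75.2%, 37.1% and 79.0% in ESI+ replicates 1, 2 and 3. All ESI+ shares were lower, with ESI+ replicate 2 far below the rest. The high-affinity genes PHO84 and PHO89 together made up 91.5% ± 0.85 (SD, n = 3) in naive libraries and 73.8% ± 13.4 (SD, n = 3) in ESI+ libraries. The difference of -17.7 percentage points had p = 0.1 in a two-sided exact permutation test, the smallest p that 3 against 3 allows. The ratio of PHO84 to PHO90 TPM was 18.8, 18.0 and 13.0 in naive replicates 1, 2 and 3 and 7.65, 1.42 and 8.09 in ESI+ replicates 1, 2 and 3, so no ESI+ library reached the naive range. With the length-proportional floor subtracted, the high-affinity share was 96.4%, 96.7% and 95.5% in naive and 90.1%, 60.9% and 81.8% in ESI+ libraries. Without ESI+ replicate 2 the difference in TPM shares was -9.995 percentage points.

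**Figure D5:**
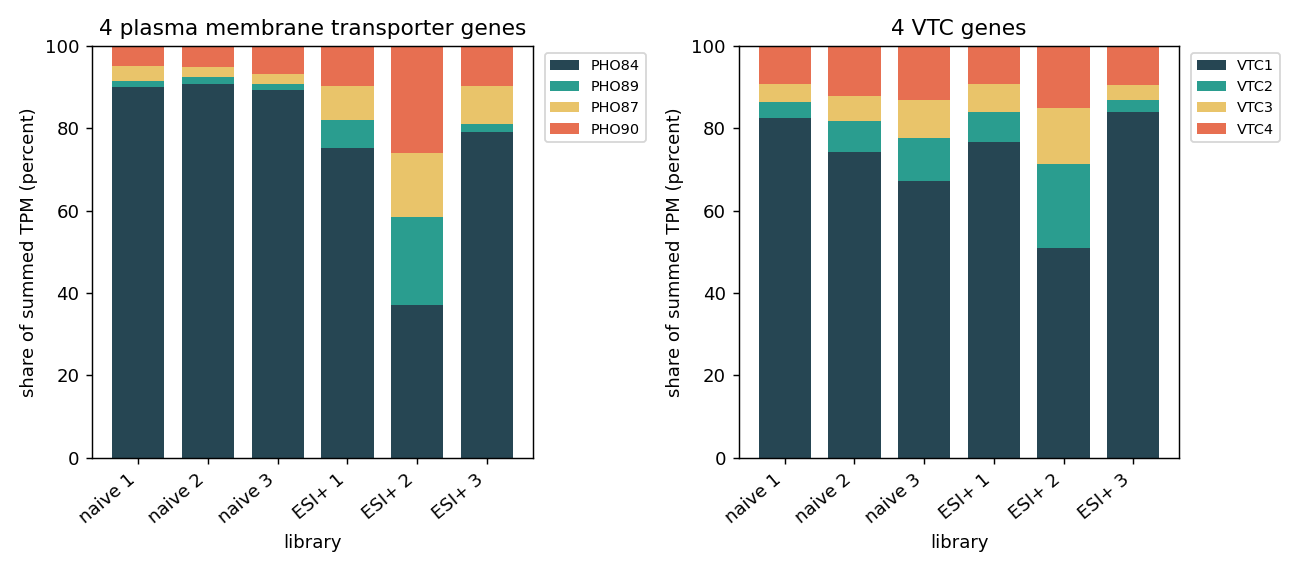
Shares of summed TPM (percent) in each library, for the 4 plasma membrane transporter genes on the left and the 4 VTC genes on the right. PHO84 takes 89.4% to 90.7% in the naive libraries and 37.1% to 79.0% in the ESI+ libraries, while the VTC shares overlap between the groups.

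The VTC genes encode a complex in which Vtc4 holds the catalytic site, Vtc2 and Vtc3 are alternative accessory subunits with SPX domains, and the small membrane protein Vtc1 lacks that domain. None of the 4 was called, and their log2 fold changes were all negative on the CPM scale, with a median of -0.76. All 4 were in the most abundant of the 4 groups of 711 genes, as was PHO84, and the median log2 fold change of all genes in that group was -0.83.

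VTC4 (YJL012C, chrX:411234-413399, minus strand) had 557, 687 and 555 CPM in naive and 303, 188 and 453 CPM in ESI+ libraries. All ESI+ values lay below all naive values, as for 14.6% of tested genes. Its log2 fold change was -0.94 with an SE of 0.56 and an edgeR adjusted p of 0.284. VTC3 (YPL019C, chrXVI:514511-517018, minus strand) had 307, 424 and 476 CPM in naive and 275, 208 and 213 CPM in ESI+ libraries, also without overlap. Its log2 fold change was -0.79 with an SE of 0.48 and an edgeR adjusted p of 0.297. On the TPM scale both genes overlapped between the groups. VTC2 (YFL004W, chrVI:131810-134296, plus strand) had 271, 497 and 521 CPM in naive and 298, 313 and 168 CPM in ESI+ libraries. Its groups overlapped because naive replicate 1 was low (edgeR log2 fold change -0.72 with SE 0.51 and adjusted p = 0.371).

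VTC1 (YER072W, chrV:302806-303195, plus strand) had the widest spread of the 4. Its CPM values were 826, 591 and 398 in naive and 440.4, 104 and 666 in ESI+ libraries. ESI+ replicate 2 had the lowest value and ESI+ replicate 3 the second highest of all 6 libraries, so the groups overlapped. Its edgeR log2 fold change was -0.59 with an SE of 0.62 and an adjusted p of 0.571. Leaving out ESI+ replicate 2 gave -0.13, and leaving out ESI+ replicate 3 gave -1.16. On the TPM scale VTC2 and VTC3 turned to log2 fold changes of 0.05 and 0.01 by limma on log2(TPM + 1), while VTC1 and VTC4 kept negative values of -0.27 and -0.23, all below the median of 0.64 over all genes.

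Within the complex, VTC1 was the most abundant transcript in every library. It had 1678, 1132 and 868 TPM in naive and 969, 531 and 1826 TPM in ESI+ libraries, against 170.3 to 189.7 TPM in naive and 116 to 206 TPM in ESI+ libraries for VTC4. VTC1 made up 74.6% ± 7.70 (SD, n = 3) of the summed VTC TPM in naive libraries and 70.4% ± 17.3 (SD, n = 3) in ESI+ libraries. In the same order of groups, VTC4 made up 11.6% ± 1.99 and 11.2% ± 3.27, VTC2 7.23% ± 3.27 and 10.3% ± 9.03, and VTC3 6.57% ± 2.54 and 8.09% ± 5.12 (SD, n = 3 each). VTC2 and VTC3 were similar in level and did not differ beyond their spread in naive libraries, at 109 ± 28.5 and 100.2 ± 17.6 TPM (SD, n = 3). The shares of all 4 subunits overlapped between the groups, and none passed (two-sided exact permutation test, p = 0.7 to 0.9, adjusted p = 0.9 over the 4 subunits, with 0.1 the smallest p possible). The transcript of the catalytic subunit was thus the second most abundant of the complex in 5 libraries, and VTC2 took that place in ESI+ replicate 2, with 213 TPM against 156 for VTC4. The 4 genes whose log2 CPM followed VTC1 most closely over the 6 libraries, among 2327 genes with a mean of at least 50 CPM, were the proteasome subunit gene PRE7, the RNA polymerase II subunit gene RPB4, the glyoxalase gene GLO2 and the cytosine deaminase gene FCY1, with Pearson's r of 0.994, 0.992, 0.988 and 0.988. These values share the same libraries and their depth and are a description only.

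Of 30 further genes of the phosphate pathway, 13 are listed. None was called by edgeR, DESeq2 or limma on log2(TPM + 1), with a median log2 fold change of -0.24, and at an unadjusted p under 0.05 edgeR had 0 higher and 4 lower, where 15.1% of all genes were higher and 10.6% lower. The signalling list held 1 listed gene of 5, the cyclin-dependent kinase gene PHO85, at 85.6, 109 and 136 CPM in naive and 88.3, 90.4 and 103 CPM in ESI+ libraries. It overlapped between the groups (edgeR log2 fold change -0.24 with SE 0.46 and adjusted p = 0.775). None of the 5 named genes of inositol pyrophosphate metabolism is listed.

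Among 4 listed phosphatase and scavenging genes, 2 had positive and 2 negative log2 fold changes. PHO3, a constitutive acid phosphatase gene, had 147, 187 and 305 CPM in naive and 88.3, 122 and 90.1 CPM in ESI+ libraries. All ESI+ values lay below all naive values, as for 14.6% of tested genes (edgeR log2 fold change -1.08 with SE 0.45 and adjusted p = 0.122). The phosphate-repressible paralog PHO5, also listed, matches PHO3 at 86.7% of positions, and reads of stretches they share could be split between them. PHO13, a phosphatase gene that acts on small metabolites, had 110.3, 148 and 142 CPM in naive and 78.6, 135 and 223 CPM in ESI+ libraries. Its groups overlapped (edgeR log2 fold change 0.10 with SE 0.46 and adjusted p = 0.899).

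Polyphosphate turnover showed values on both sides. PPN1, a vacuolar endopolyphosphatase gene, had 574, 1335 and 795 CPM in naive and 678, 206 and 150.2 CPM in ESI+ libraries. ESI+ replicate 1 lay within the naive range and the other two far below it (edgeR log2 fold change -1.38 with SE 0.66 and adjusted p = 0.183). DDP1, which encodes a hydrolase of polyphosphate and inositol pyrophosphates, had 179.7, 166 and 127 CPM in naive and 107, 52.2 and 52.6 CPM in ESI+ libraries. Its ESI+ values all lay below its naive values on the CPM and the TPM scale, as for 14.6% and 3.69% of tested genes. Its edgeR log2 fold change was -1.15 with SE 0.47 and adjusted p = 0.119. VTC5, an accessory VTC subunit gene named after its values were seen, had 38.0, 36.7 and 53.6 CPM in naive and 57.1, 88.7 and 80.1 CPM in ESI+ libraries. All ESI+ values lay above all naive values, as for 15.2% of tested genes. VTC5 did not pass (edgeR log2 fold change 0.81 with SE 0.54 and adjusted p = 0.345). In ESI+ replicate 2 its counts were 0.81 times the floor for its length.

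Other carriers did not pass either. PHO88 (listed as SND3 in RefSeq), a gene linked to phosphate transport and to the targeting of proteins to the endoplasmic reticulum, had 502, 425 and 399.9 CPM in naive and 188, 80.5 and 268 CPM in ESI+ libraries. Its ESI+ values all lay below its naive values, as for 14.6% of tested genes. Its log2 fold change was -1.32 with an SE of 0.51 and an edgeR adjusted p of 0.0963, the lowest of the 13 genes. PIC2, a mitochondrial phosphate and copper carrier gene, had 206, 437 and 567 CPM in naive and 1085, 142 and 293 CPM in ESI+ libraries. ESI+ replicate 1 was the highest and ESI+ replicate 2 the lowest of all 6, so no direction was shared (edgeR log2 fold change 0.33 with SE 0.64 and adjusted p = 0.773). The remaining listed pathway genes had edgeR log2 fold changes of 0.87 (GTR1), 0.34 (PHM8), 0.20 (PPN2), -0.81 (PHO86) and -0.83 (PHO5). On the CPM scale GTR1 and PHM8 lay higher in all ESI+ libraries, as VTC5 did, and PPN2, PHO86 and PHO5 overlapped.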

How the data were processed

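Polyadenylated RNA of 6 libraries, 3 naive and 3 ESI+, was read as pairs on a NextSeq machine, per the labels' protocols. Per the submitters' processing notes, the authors used kallisto 0.43.1 and build R64. The authors' deposited tables give, per the file headers, estimated counts and TPM for 17906 isoforms of 2850 genes, 44.3% of the 6431 nuclear genes of the reference. The tool's options, the origin of the isoform models and the strand setting are not stated in the labels or files used. The deposited TPM values are scaled by the authors' tool for length and to the same total. Each gene's isoforms were summed, and the estimated counts rounded for testing.

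All genes were tested with edgeR 4.0.16 (quasi-likelihood, TMM, robust dispersion as chosen to match an earlier analysis of these data, default filter with minimum count 10) in R 4.3.3 with Benjamini-Hochberg adjustment and a threshold of 0.05, and the 8 genes were read from that fit. DESeq2 1.42.0 and limma 3.58.1 were alternatives. The edgeR procedure was run on simulated counts with the same dispersion in both groups and no floor. That run does not cover the wider spread of the ESI+ libraries or their floor. Standard errors were derived from the F statistic. Shares were compared by two-sided exact permutation tests. Copies were sought with blastn 2.17.0. Over all genes, same-numbered replicates did not deviate together (r of -0.06, -0.21 and -0.04), so numbers were not treated as pairs. P-values measure the spread between these cultures only. The members and lists were chosen with earlier results of these data known. Pathway genes described library by library are those called plus the 2 with the highest naive TPM in each list, and VTC5 was added outside that rule. Genes like a member were those with the highest Pearson's r.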

Additional observations from a re-analysis of the deposited data

How the results depend on the processing

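PHO89, PHO87 and PHO90 kept positive log2 fold changes in all 18 alternatives and passed in 11, 11 and 8 of them, while PHO84 and the VTC genes passed in 0. For PHO89, PHO87 and PHO90 every ESI+ value lay above every naive value in CPM and TPM. Their shared sign over the alternatives therefore adds little to the main fit. The direction of PHO89 with the floor subtracted was fixed by its naive counts, all under the floor. On the TPM scale with pseudocounts of 1 and 0.1, PHO84 turned to 0.22 and 0.22, VTC2 to 0.048 and 0.047, and VTC3 to 0.0104 and 0.0102, where the median of all genes was 0.64 and 0.65. The count of the 8 genes called higher was 0 in limma with either pseudocount, 1 with a replicate block, 0 with the floor subtracted and 0 with ESI+ replicate 1 alone, and 0 to 3 when single libraries were left out. The whole table gave 96 higher and 20 lower genes in limma on log2(TPM + 0.1), 67 and 25 with a replicate block, 0 and 0 with the floor subtracted, 0 and 0 with ESI+ replicate 1 alone (223 and 124 at an unadjusted p under 0.05 in edgeR), and 2 to 331 higher and 0 to 87 lower when single libraries were left out. DESeq2 called 145 lower, edgeR without robust dispersion 28 lower, and edgeR without both replicates 3 called 6 lower. The cause of these differences was not tested. Under the replicate block PHO87 passed (log2 fold change 1.87, adjusted p = 0.0476) and PHO89 and PHO90 did not (2.13 and 1.28, adjusted p = 0.0758 and 0.134). Over all genes, same-numbered libraries did not deviate together, although URA3 was high in both libraries numbered 3. Without robust dispersion PHO90 had an adjusted p of 0.0591. ESI+ replicate 1 alone, both replicates 3 left out and the dispersion setting were chosen after seeing the data.

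The share of high-affinity transporters was lower in ESI+ in all 8 alternatives, by -21.9 to -9.995 percentage points when single libraries were left out. All its ESI+ values lay below all its naive values, so leaving out single libraries could not turn the sign. The VTC shares turned in places. That of VTC1 was 0.43 points higher in ESI+ as a share of counts and 1.25 with the floor subtracted, and -10.9 to 5.55 over left-out libraries. That of VTC3 was -0.62 with the floor subtracted and -1.29 to 3.73 over left-out libraries, where VTC2 ran from -2.02 to 6.66 and VTC4 from -2.25 to 0.66. Depth limits PHO89 most, with 10 counts in naive replicate 2 and 7 in ESI+ replicate 3.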
